A study of Rattus norvegicus with 48 samples.

Results

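The 9 genes described here encode reductases of rat liver: 4 aldo-keto reductases (Akr7a3, Akr7a2, Akr1c14 and Akr1a1), the carbonyl reductase Cbr1, the quinone reductases Nqo1 and Nqo2, and Txnrd1 and Srxn1 of the thioredoxin system. They were chosen by symbol, with earlier results of these data known. All 9 were found among the 14217 genes that the array annotation names, with 14 of 31099 probesets. Male F344 rats, 9 weeks old, were fed the sodium salt of phenobarbital (PB) in the diet at 0, 50, 500 or 1000 ppm for 1, 3, 7 or 14 days. RNA from the left lateral lobe of the liver was hybridised to 1 Affymetrix array per animal, with 3 of the 5 animals of each dose and day, giving 48 arrays in 16 groups. All animals ate the same base diet, the 0 ppm animals without PB, and they served as time matched controls on each day. Values are MAS5 signals in linear units, read for each gene from its probeset with the highest mean signal. No signal is listed for some probesets on some arrays, and such values were left missing.

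For 7 arrays, 4 at 50 ppm and 3 at 500 ppm, the title gave another group than the animal number in the study design, and the animal number was used. The comparisons at 50 or 500 ppm were therefore also made without these arrays, while the 0 and 1000 ppm groups hold none of them. Arrays listed 13506 to 16378 probesets and correlated with one another between 0.956 and 0.988. Array names in the labels open with 6 different prefixes. Arrays that share one are called a run here, although the labels do not say what the prefix marks. Run 1 listed a median of 14260 probesets, against 15265 to 15978 in the other runs. All 3 arrays of 1000 ppm on day 14 belong to run 1, while the controls of that day belong to runs 5 and 6. Dose and run thus differ together in that comparison. The tissue label was borne out by the hepatocyte markers, of which 5 of 6 had a probeset, each listed on all 48 arrays, with a median summed signal of 232349 at 1000 ppm and 213618 at 0 ppm. In a whole piece of liver, fewer cells of a type and less RNA per cell cannot be told apart.

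Aldo-keto reductases and carbonyl reductases use NADPH to turn reactive aldehydes and ketones into alcohols, and NAD(P)H:quinone oxidoreductases reduce quinones in a single step of electron transfer that bypasses the semiquinone radical. Thioredoxin reductase keeps thioredoxin reduced, and sulfiredoxin repairs peroxiredoxins that peroxide has overoxidised. Several of these genes are textbook targets of the transcription factor Nrf2, which Keap1 holds back until electrophiles or oxidants modify it. PB itself is best known in hepatocytes for activating the nuclear receptor CAR, whose classical targets are cytochrome P450 genes.

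Promoter windows of 300 bases, 250 before and 50 after the annotated transcript start, were taken from RefSeq for build GRCr8 because several members rose together. All 9 members had a window, and Txnrd1 had 2, so 10 windows were searched on both strands. The motifs were TGACNNNGC (the core of the antioxidant response element), TGACTCA (the AP-1 core, which overlaps the first motif where both begin at the same TGAC) and AGGTCA (a nuclear receptor half-site). They occurred in 12.1%, 4.63% and 16.2% of all 33469 windows in that order, and in 1, 1 and 3 of the 10 member windows. Srxn1 held TGACTCA in the reverse direction at 2 places, starting 62 and 5 bases before the transcript start, which 0.17% of all windows did, and AGGTCA once. The 4 windows below are those of the members that the results turn on, with motif matches in capitals. Srxn1 lies at chr3:161064562-161064861 on the plus strand, Nqo1 at chr19:52220218-52220517 on the minus strand, Akr7a3 at chr5:156876471-156876770 on the plus strand and the Txnrd1 window with a match at chr7:22755855-22756154 on the minus strand.
Akr7a3: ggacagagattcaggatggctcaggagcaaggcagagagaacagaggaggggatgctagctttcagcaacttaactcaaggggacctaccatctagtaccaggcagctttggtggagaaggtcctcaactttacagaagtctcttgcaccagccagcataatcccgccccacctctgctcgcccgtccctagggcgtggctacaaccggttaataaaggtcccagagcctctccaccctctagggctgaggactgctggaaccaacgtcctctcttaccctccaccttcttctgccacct
Nqo1: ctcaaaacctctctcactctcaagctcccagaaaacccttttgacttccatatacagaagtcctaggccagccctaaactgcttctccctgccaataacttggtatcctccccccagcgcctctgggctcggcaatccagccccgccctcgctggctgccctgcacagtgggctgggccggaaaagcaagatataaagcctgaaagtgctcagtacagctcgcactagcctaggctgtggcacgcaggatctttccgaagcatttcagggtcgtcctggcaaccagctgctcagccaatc
Txnrd1: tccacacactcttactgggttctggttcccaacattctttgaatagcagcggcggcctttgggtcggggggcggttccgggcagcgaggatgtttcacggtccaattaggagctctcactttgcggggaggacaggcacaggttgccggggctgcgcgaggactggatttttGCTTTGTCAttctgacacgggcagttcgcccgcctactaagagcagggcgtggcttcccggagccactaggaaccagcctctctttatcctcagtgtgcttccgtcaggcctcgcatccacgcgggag
Srxn1: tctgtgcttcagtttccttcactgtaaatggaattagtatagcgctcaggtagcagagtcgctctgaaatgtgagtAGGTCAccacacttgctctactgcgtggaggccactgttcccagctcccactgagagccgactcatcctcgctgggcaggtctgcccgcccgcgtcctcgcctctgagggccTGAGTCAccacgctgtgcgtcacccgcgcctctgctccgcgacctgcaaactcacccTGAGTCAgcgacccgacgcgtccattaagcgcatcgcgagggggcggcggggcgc
The windows of Akr7a3 and Nqo1 held none of the 3 motifs, and that of Txnrd1 held TGACNNNGC once, on the opposite strand, starting 78 bases before the transcript start. Akr7a2 and Nqo2 each held AGGTCA once. A match is a description of the letters and no evidence of binding. Sequence more than 250 bases before the start was not searched, so a window without a match does not show that a gene lacks the motif.

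PB raised most of these reductase genes, and it lowered none beyond the threshold in any averaged comparison. Over the 4 days, 7 of 8 tested members exceeded time matched controls at 1000 ppm with an adjusted p under 0.05 (limma), and 0 were lower. Over all probesets tested, 7.11% were higher and 7.01% were lower. Such shares are given for scale and are no test of the set, since its members were chosen with earlier results known. At 500 ppm 5 of 8 were higher and 0 lower, with 4.64% and 3.99% over all probesets. At 50 ppm 0 of 8 were called in either direction, with 0.149% higher and 0% lower over all probesets, and 1 member, Nqo1, had an unadjusted p under 0.05. The median change of the members was 0.04, 0.22 and 0.30 on the log2 scale at 50, 500 and 1000 ppm, while the median over all probesets was between -0.01 and 0.00. Srxn1 was not tested in these averages, since 2 of its 3 control arrays listed no value on day 1 and on day 14. The 5 members called at 500 ppm were also called without the 7 arrays, and the 50 ppm count stayed at 0.

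**Figure D1:**
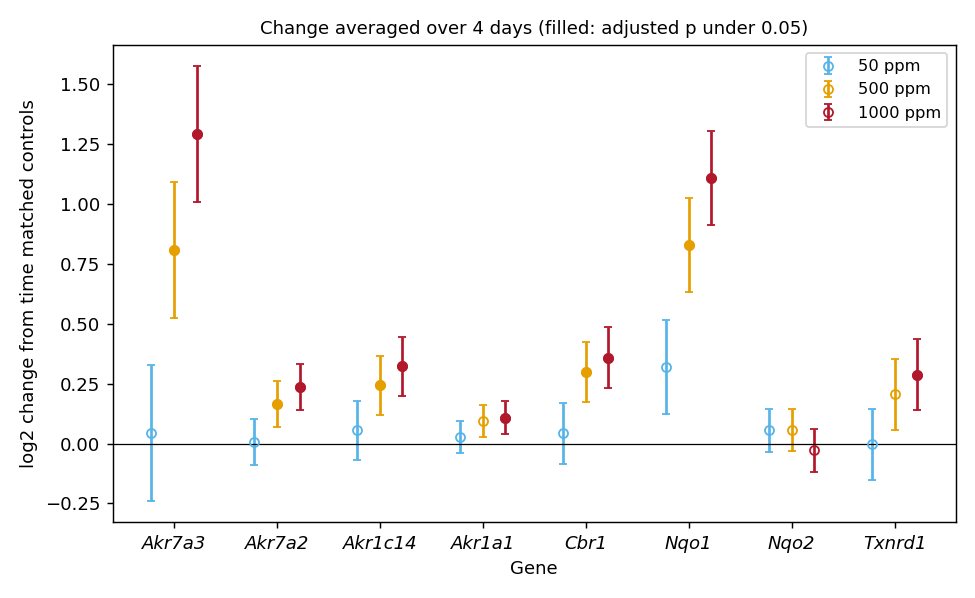
Change of 8 reductase genes averaged over 4 days (vertical axis, log2 change from time matched controls) at 50, 500 and 1000 ppm, with points for estimates, bars for 95% confidence intervals and filled points for an adjusted p under 0.05. Akr7a3 and Nqo1 stood above the other genes, at 1.29 and 1.11 at 1000 ppm, and the intervals of Nqo2 held 0 at all 3 doses.

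Akr7a3, the aflatoxin aldehyde reductase of rat liver, had the largest change of the 8 at 1000 ppm. The 12 animals on 1000 ppm ran from 5041 through a median of 6254 to 10902 signal units, against 1754, 3155 and 4033 in the 12 controls. All 12 treated animals lay above the highest control, which 0.709% of probesets listed on every array showed at 1000 ppm. The change was 2.45-fold (log2 1.29 ± 0.14 SE, adjusted p = 1.08e-08). Within the 6 runs, 1000 ppm minus control animals differed by 0.83 to 1.86 on the log2 scale, but most of these sets differ in day as well as dose, so the values are not time matched.

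At 500 ppm Akr7a3 ran from 3759 through 4790 to 8206, with 9 of 12 animals above the highest control. The lowest animals at this dose therefore lay among the controls. Its change was 1.75-fold (log2 0.81 ± 0.14 SE, adjusted p = 0.000121, and 0.76 with an adjusted p of 0.000394 without the 7 arrays). At 50 ppm the range of 1861 to 4796 overlapped that of the controls, and the log2 change of 0.05 had a 95% interval from -0.24 to 0.33 (0.01 without the 7 arrays). On day 1 the animals on 1000 ppm had 5175, 10902 and 9145, against 3517, 4033 and 3958 in controls. On day 14 they had 6208, 5677 and 10252, against 2170, 1754 and 2011 in controls. The treated and control arrays did not overlap on either day, and the highest treated value was about as high on both days while the controls were lower on day 14. Shares over all probesets were counted only for all 12 arrays of a dose above the highest control. None was counted for fewer arrays or for groups of 3 apart on a single day, here or below. The mean of the controls was 3836, 3503, 2746 and 1979 on days 1, 3, 7 and 14, a difference between days that did not pass adjustment (limma F-test, adjusted p = 0.300).

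The other aldo-keto reductases moved by less. Akr7a2, a close relative that reduces succinic semialdehyde, ran from 5970 through 6423 to 8340 at 1000 ppm, against 5000, 5711 and 6195 in controls. Of the 12 treated animals 11 lay above the highest control, and the change was 1.18-fold (log2 0.24 ± 0.05 SE, adjusted p = 0.000445). At 500 ppm the log2 change was 0.17 ± 0.05 (adjusted p = 0.0207, and 0.0328 without the 7 arrays), a call that was lost with the run as a block (adjusted p = 0.0706), with arrays placed by title (0.0778), with arrays divided by their median (0.159) and without replicate 2 of 500 ppm on day 1 (0.0548). Its change at 50 ppm was 0.01 ± 0.05, with a 95% interval from -0.09 to 0.10.

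Akr1c14, the hydroxysteroid dehydrogenase of rat liver cytosol, ran from 15489 through 18412 to 24459 at 1000 ppm, against 12928, 14754 and 16890 in controls. Of the treated animals 10 of 12 exceeded every control. The change was 1.25-fold at 1000 ppm (log2 0.32 ± 0.06, adjusted p = 0.000196) and 1.18-fold at 500 ppm (log2 0.24 ± 0.06, adjusted p = 0.00725, and 0.0211 without the 7 arrays). It had 2 further probesets, with log2 changes of 0.36 ± 0.08 and 0.39 ± 0.05 at 1000 ppm and of 0.39 ± 0.08 and 0.35 ± 0.05 at 500 ppm, all 4 called (adjusted p from 1.97e-06 to 0.00210). The probeset used carries the mark that Affymetrix gives to probes shared by related transcripts, so signal from other members of the Akr1c family cannot be separated in it. The 2 further probesets do not carry that mark.

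Akr1a1, the aldehyde reductase that also makes the ascorbate precursor gulonate in rats, ran from 10792 through 11921 to 12558 at 1000 ppm, against 10223, 10915 and 12089 in controls. The groups overlapped widely, and 4 of 12 treated animals exceeded the highest control. The change was 1.08-fold at 1000 ppm (log2 0.11 ± 0.03, adjusted p = 0.0259). This call was lost with quantile normalisation (log2 0.08, adjusted p = 0.135), with arrays divided by their median (0.06, adjusted p = 0.307), without replicate 2 of the controls on day 3 (adjusted p = 0.0511) and without replicate 3 of 1000 ppm on day 14 (adjusted p = 0.0512). At 500 ppm the log2 change was 0.09 (adjusted p = 0.0777, and 0.101 without the 7 arrays).

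Cbr1, a carbonyl reductase of the short-chain dehydrogenase family that reduces quinones and prostaglandins, ran from 356 through 462 to 586 at 1000 ppm, against 285, 358 and 509 in controls. The ranges overlapped, and the highest controls were those of day 1, at 509, 437 and 435. Averaged over days the change was 1.28-fold (log2 0.36 ± 0.06, adjusted p = 6.87e-05). At 500 ppm it was 1.23-fold (log2 0.30 ± 0.06, adjusted p = 0.00129, and 0.26 with an adjusted p of 0.0135 without the 7 arrays). At 50 ppm it was 0.04, with a 95% interval from -0.08 to 0.17 (-0.01 without the 7 arrays). Control Cbr1 averaged 461, 359, 314 and 343 on days 1, 3, 7 and 14, the smallest p of the members for a difference between control days, which did not pass adjustment (limma F-test, adjusted p = 0.110). Over the controls, 0 of 8 tested members were called between days, against 0.133% of all probesets, and 2 members, Akr7a3 and Cbr1, had an unadjusted p under 0.05.

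Of the 2 quinone reductases Nqo1 was called at 500 and 1000 ppm and Nqo2 at neither. Nqo1, also called DT-diaphorase, ran from 983 through 1254 to 2104 at 1000 ppm, against 348, 612 and 733 in controls. All 12 animals on 1000 ppm lay above the highest control. The change was 2.15-fold (log2 1.11 ± 0.10, adjusted p = 6.59e-11). Within runs the difference, not matched for day, was between 0.65 and 1.53. The 12 animals on 500 ppm ran from 826 through 1097 to 1432, again all above the highest control, which 0.502% of probesets listed on every array showed. Their change was 1.78-fold (log2 0.83 ± 0.10, adjusted p = 9.41e-08, and 0.85 without the 7 arrays).

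At 50 ppm Nqo1 ran from 556 through 775 to 1130. Of these 12 animals 7 lay above the highest control, while all 12 did in 0.0296% of probesets listed on every array. Nqo1 was not among these probesets, and how many had 7 or more animals above the highest control was not counted. The share of 0.0296% therefore does not show how rare 7 of 12 was. The 1.25-fold change (log2 0.32, 95% interval from 0.12 to 0.52) had an unadjusted p of 0.00208 and did not pass adjustment (adjusted p = 0.312, and 0.628 with a log2 change of 0.30 without the 7 arrays). On day 3 the 50 ppm animals had 1097, 1130 and 873, against 574, 602 and 713 in controls. These groups did not overlap, and the change of 0.71 on that day had an adjusted p of 0.125 (0.83 and 0.142 without the 7 arrays).

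Nqo1 signal was highest on day 3 at 1000 ppm, with 1815, 1619 and 2104, against the same control values of 574, 602 and 713. The change on that day was 1.55 ± 0.19 (adjusted p = 1.55e-06) and it was called with the run as a block as well (1.52, adjusted p = 0.000158). No control of that day reached the lowest treated value. On day 1 the 1000 ppm animals had 983, 1594 and 1223, against 732, 680 and 701 in controls. On day 7 they had 1185, 1329 and 1196, against 348, 733 and 614 in controls. On day 14 they had 1002, 994 and 1285, against 586, 609 and 591 in controls. The 1000 ppm and control arrays did not overlap on any day, and how many of all probesets showed this was not counted.

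Nqo2, which takes its electrons from dihydronicotinamide riboside and not from NAD(P)H, ran from 2397 through 2748 to 3003 at 1000 ppm, against 2396, 2743 and 3053 in controls. The groups covered nearly the same range. The log2 change was -0.03 at 1000 ppm, with a 95% interval from -0.12 to 0.06. Its upper end lay below the estimates of the 7 called members, but the interval of Akr1a1, from 0.04 to 0.18, overlapped it. Nqo2 was not tested against any other member. The log2 change of Nqo2 was 0.06 at 50 ppm, with an interval from -0.03 to 0.14, and 0.06 at 500 ppm, with an interval from -0.03 to 0.15. Without the 7 arrays these were 0.02 at 50 ppm and 0.09 at 500 ppm. On day 14 at 1000 ppm Nqo2 had a change of -0.21 (adjusted p = 0.203), which was called lower with quantile normalisation (-0.32, adjusted p = 0.0316) and with arrays divided by their median (-0.44, adjusted p = 0.00702). On that day these scalings moved the median change of all probesets to -0.20 and -0.22. The 1000 ppm arrays of day 14 are all of run 1 and the controls of other runs, so dose and run differ together there.

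Txnrd1, the cytosolic thioredoxin reductase, a selenoprotein, was called in its brightest probeset on day 1 alone when days were read singly at 1000 ppm. On that day the 1000 ppm animals had 3366, 3870 and 3625, against 2245, 2594 and 2094 in controls. The groups did not overlap, and the log2 change was 0.65 ± 0.15 (adjusted p = 0.0101, but 0.650 in the fit blocked by run). On day 7 the 1000 ppm animals had 1941, 2324 and 2506, against 2370, 2163 and 2638 in controls, and these overlapped. Over the 4 days Txnrd1 was 1.22-fold higher at 1000 ppm (log2 0.29 ± 0.07, adjusted p = 0.00585). At 500 ppm it was 1.15-fold higher without passing the threshold (log2 0.21, adjusted p = 0.0753, and 0.173 without the 7 arrays), and it passed when replicate 1 of the controls on day 3 (adjusted p = 0.0492), replicate 1 of 500 ppm on day 3 (0.0259) or replicate 2 of 500 ppm on day 7 (0.0426) was left out. At 50 ppm the interval of the change ran from -0.15 to 0.15. A further probeset of Txnrd1 was called at both doses, with log2 changes of 0.41 ± 0.07 at 1000 ppm (adjusted p = 6.20e-05) and 0.33 ± 0.07 at 500 ppm (adjusted p = 0.00216). In this probeset the 1000 ppm animals had 2643, 2307 and 2658 on day 3, against 1854, 1415 and 1285 in controls. Its 1000 ppm and control arrays did not overlap on days 1, 3 and 14 and overlapped on day 7. The difference was thus not confined to day 1 in this probeset, for which no test by day is given.

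Srxn1, sulfiredoxin, was the least evenly listed member. Its brightest probeset had a signal on 7, 8, 10 and 12 of 12 arrays at 0, 50, 500 and 1000 ppm. Listed values ran from 374 through 533 to 903 at 1000 ppm, against 232, 281 and 325 on the 7 control arrays. All 12 arrays at 1000 ppm and 9 of 10 listed arrays at 500 ppm lay above the highest listed control, and the control arrays with no listed value stay out of that comparison.

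On day 3 the 1000 ppm animals had 896, 734 and 458 for Srxn1, against 272 and 281 on the 2 listed control arrays. The change was 1.28 ± 0.20 (adjusted p = 0.000206), and it was called with the run as a block (1.07, adjusted p = 0.0135). At 500 ppm the values on day 3 were 533, 549 and 734, a change of 1.11 ± 0.20 (adjusted p = 0.00300, 0.0471 without the 7 arrays, 0.0854 with arrays placed by title and 0.556 when blocked by run). On day 1 the 1000 ppm animals had 879, 903 and 764, and only 1 control array listed a value, 325, so that day was not tested. A further Srxn1 probeset was listed on 9, 10, 11 and 10 of 12 arrays at 0, 50, 500 and 1000 ppm, with a change of 0.28 ± 0.15 at 500 ppm over 4 days (adjusted p = 0.283), and the last of its 3 probesets was listed on none.

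**Figure D2:**
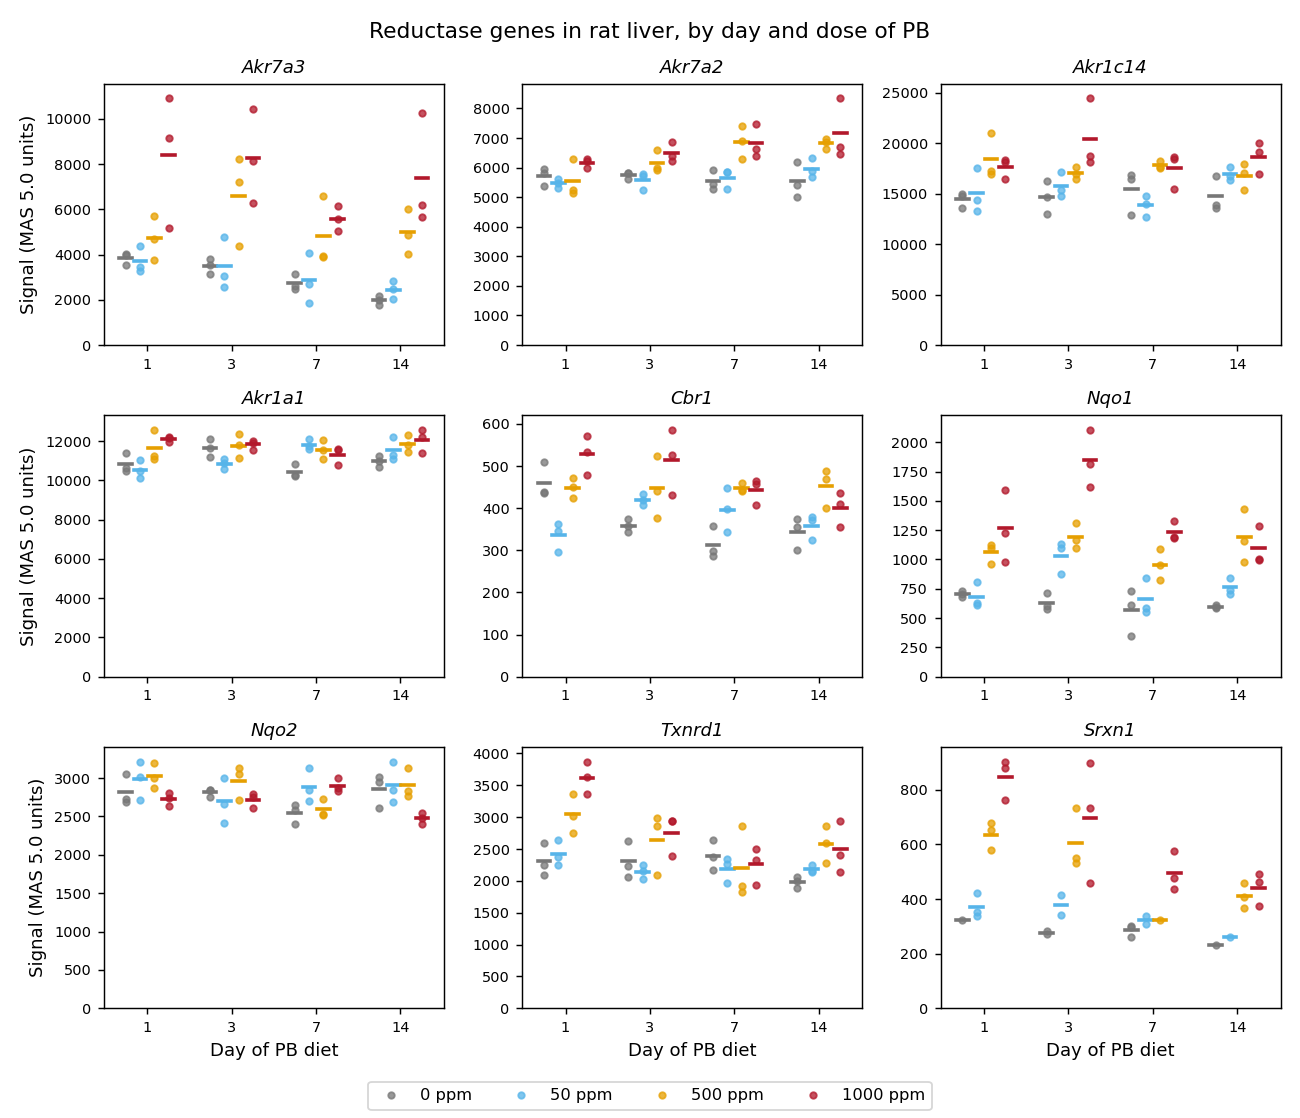
Signal of each reductase gene in every animal (vertical axis, MAS5 units from 0; points are animals, short lines are group means, n = 3 or fewer listed) by day of the PB diet (horizontal axis) and dose (colour). Akr7a3 and Nqo1 at 1000 ppm stood clear of the controls on all 4 days, Txnrd1 on day 1 had 3366 to 3870 at 1000 ppm, and Srxn1 is plotted only where a value was listed.

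Day by day, with 3 animals per group, calls were fewer. At 1000 ppm 3 of 8, 5 of 9, 4 of 9 and 3 of 8 tested members were higher on days 1, 3, 7 and 14 and 0 lower, while 2.46%, 4.01%, 1.86% and 3.45% of all probesets were called in either direction. Nqo1 and Akr7a3 were called on all 4 days, Cbr1 on days 3 and 7 (0.51 and 0.50), Srxn1 on days 3 and 7, Akr1c14 on day 3 (0.48), Txnrd1 on day 1 and Akr7a2 on day 14 (0.37). At 500 ppm 0 of 8, 2 of 9, 2 of 8 and 2 of 8 were higher and 0 lower, with 0.842%, 1.16%, 3.5% and 1.51% of all probesets called. These were Nqo1 on days 3, 7 and 14 (0.92, 0.82 and 0.98), Srxn1 on day 3, Cbr1 on day 7 (0.52) and Akr7a3 on day 14 (1.32). On day 1 at 500 ppm 3 members had an unadjusted p under 0.05. At 50 ppm 0 members were called on any day, against 0.0142%, 0.102%, 3.66% and 0.112% of all probesets, with 1, 1, 3 and 0 members at an unadjusted p under 0.05.

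With the run as a block, 2 of the 15 calls by day at 1000 ppm were made (Nqo1 and Srxn1 on day 3) and 0 of the 6 at 500 ppm. With this block the variance was 1.52 to 3.98 times as large for single days, and 1 to 1.09 times for averages over days. With the run as a random block, all 15 calls at 1000 ppm and all 6 at 500 ppm were kept. The correlation between arrays of a run estimated for that fit was -0.0229. Run and group are partly mixed in this design, and their shares in the day comparisons cannot be told apart. Without the 7 arrays the 15 calls at 1000 ppm were made, and 5 at 500 ppm, where Nqo1 on day 3 was lost (0.85, adjusted p = 0.0649). Of the 21 calls by day, 6 were kept whichever of the 48 arrays was left out (Nqo1 at 1000 ppm on days 3 and 7 and at 500 ppm on day 14, Akr7a3 at 1000 ppm on day 14, and Srxn1 on day 3 at both doses). The call most open to single arrays was Akr7a3 at 1000 ppm on day 7 (adjusted p = 0.0474), which was lost in 28 of 48 cases, with a highest adjusted p of 0.165 without replicate 1 of 1000 ppm on that day.

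Several calls by day were also lost under other scalings. With arrays divided by their median Akr7a2 at 1000 ppm on day 14 had 0.13 (adjusted p = 0.415), and the adjusted p was 0.0595 for Akr1c14 and 0.0544 for Cbr1 at 1000 ppm on day 3. With quantile normalisation it was 0.0505 for Cbr1 on day 3 and 0.0593 for Akr7a3 on day 7 at 1000 ppm. Cbr1 at 500 ppm on day 7 was not called under either, with 0.29 by the median (adjusted p = 0.116) and 0.26 by quantiles (adjusted p = 0.182). With arrays placed by title, calls at 1000 ppm were lost for Akr7a3 on days 1 and 7 (adjusted p = 0.0533 and 0.0671), Akr7a2 on day 14 (0.0579), Nqo1 on day 1 (0.0597) and Srxn1 on day 7 (0.115), and at 500 ppm for Nqo1 and Srxn1 on day 3 (0.164 and 0.0854).

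**Figure D3:**
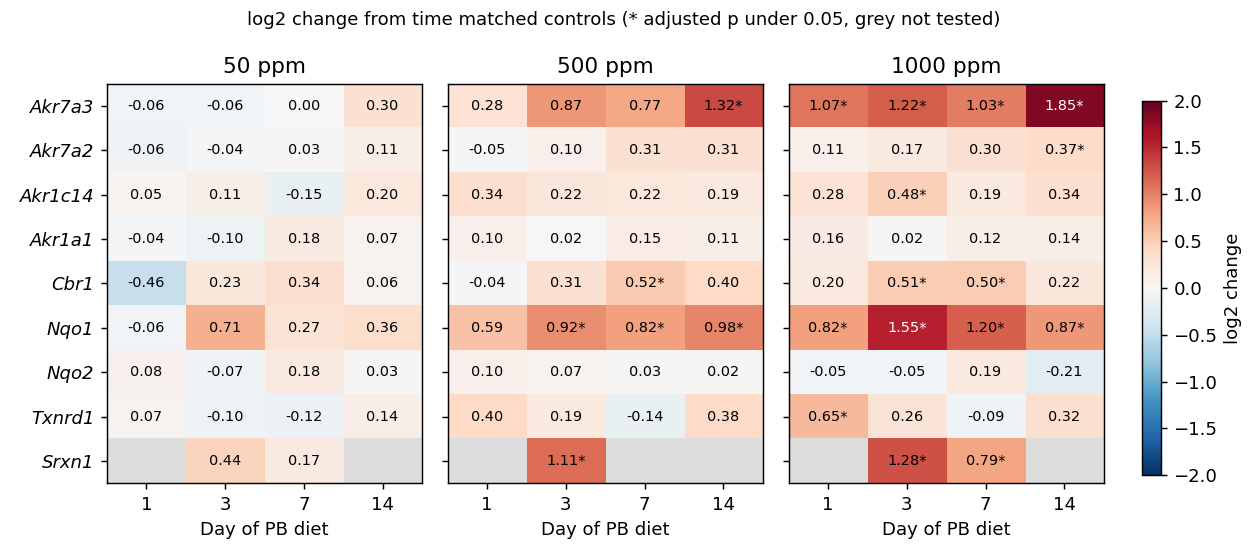
log2 change of 9 reductase genes (rows) from time matched controls on days 1, 3, 7 and 14 (columns) at 50, 500 and 1000 ppm, with colour and printed value for the change, a star for an adjusted p under 0.05 and grey where a comparison was not tested. The 15 starred cells at 1000 ppm and 6 at 500 ppm are all positive, and no cell at 50 ppm is starred.

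The 2 higher doses were set against each other over the 4 days. Of 8 members 0 were called (limma), as were 0% of all probesets, with 2 members and 712 probesets at an unadjusted p under 0.05. Akr7a3 was 0.48 higher on the log2 scale at 1000 than at 500 ppm (95% interval from 0.20 to 0.77, adjusted p = 0.661). Nqo1 was 0.28 higher (0.08 to 0.47, adjusted p = 0.715). For the other 6 the difference lay between -0.08 and 0.08. The change with time at 1000 ppm, day 14 minus day 1, was called for 0 of 8 members, with 1.02% of probesets called and 0 members at an unadjusted p under 0.05. It was 0.79 for Akr7a3 and -0.33 for Txnrd1 (adjusted p = 0.327 and 0.449). With arrays divided by their median signal 3 members were called in this comparison, Akr1a1 (-0.36), Nqo2 (-0.49) and Txnrd1 (-0.66), where the median over all probesets was itself -0.30. This comparison is mixed with run as well, since all its 1000 ppm arrays of day 14 are of run 1. The 2-way analysis of variance tested dose beside day, where a probeset entered if it was listed on every array and differed by 1.5-fold or more from controls in any group. Srxn1, which was not listed on every array, did not enter. From the members 3 entered and 3 were called for dose, Akr7a3 (adjusted p = 3.25e-09), Nqo1 (7.30e-11) and Txnrd1 (0.00156), against 42.5% of the 1693 probesets that entered.

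Among animals of the same dose and day, Akr7a3 and the brightest probeset of Txnrd1 varied together. After each group mean was removed, their log2 signals correlated over the 48 animals with a Pearson r of 0.677 (permutation p = 4.00e-05, adjusted p = 0.00112 over 28 pairs) and a Spearman rho of 0.652 (permutation p = 9.00e-05, adjusted p = 0.00252), two-sided, with permutations within groups. Pearson's r was 0.690 without the 2 animals farthest from the median of Akr7a3, 0.698 with run means removed and 0.681 without the 7 arrays (permutation adjusted p = 0.0395). This was the only pair of 28 to pass. The further probeset of Txnrd1 was not correlated with any member. The median r of the pairs was 0.13, and 21 were positive. The closest others were Akr1c14 with Nqo1 (r = 0.462, rho = 0.437, permutation adjusted p = 0.0841 and 0.0971) and Akr7a2 with Akr1c14 (r = 0.449, rho = 0.471, permutation adjusted p = 0.0749 and 0.0616). With run means removed Akr1c14 with Nqo1 (r = 0.590, permutation adjusted p = 0.0437) and Akr7a2 with Txnrd1 (r = 0.529, permutation adjusted p = 0.0459) passed as well. For Akr7a3 and Nqo1, the genes with the largest mean changes, r was -0.17 and rho -0.22 (permutation adjusted p = 0.645 and 0.502).

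**Figure D4:**
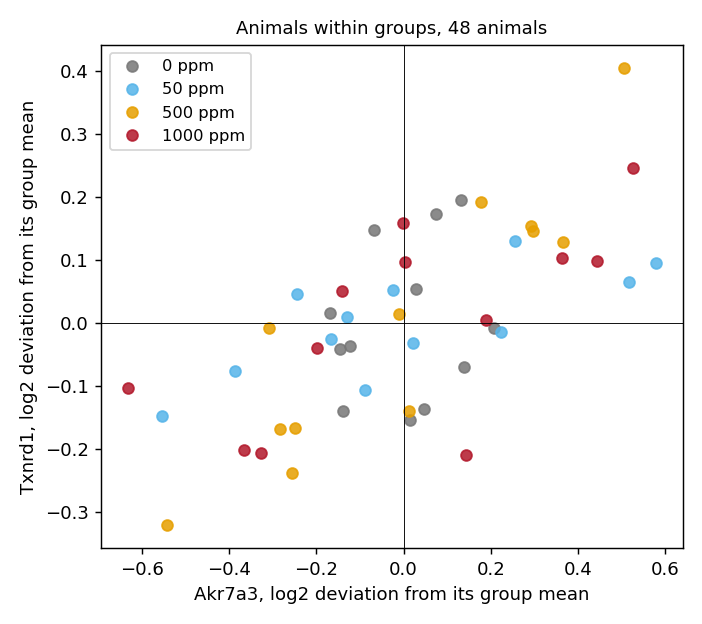
Each of 48 animals by its log2 deviation from its group mean for Akr7a3 (horizontal axis) and Txnrd1 (vertical axis), coloured by dose. Pearson's r over all animals was 0.677, and the 0 ppm animals spanned the narrowest range of Akr7a3, from -0.17 to 0.21.

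The genes whose 16 group means followed a member most closely were searched among 8390 probesets with a single gene symbol that passed the filter and were listed on every array, as a description. For Nqo1 they were Htatip2 (r = 0.962), Nif3l1 (0.918) and Rmnd1 (0.917). For Akr7a3 they were Zwint (0.947), Mlec (0.925) and Kxd1 (0.916). For Txnrd1 they were Tm2d3 (0.898), Gclc, which catalyses the first step of glutathione synthesis (0.896), and Usp14 (0.892). Among the members, the group means of Akr7a3 and Nqo1 correlated at 0.857 and those of Akr1c14 and Nqo1 at 0.855.

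Relatives of the members and genes of the surrounding pathway were read over the 4 days, from lists chosen with earlier results of these data known. Of 19 other aldo-keto reductases 6 were tested, and 0 were called at any dose (limma), with 0, 0 and 1 at an unadjusted p under 0.05 at 50, 500 and 1000 ppm and a median log2 change of 0.05 at 1000 ppm. Akr1d1, the steroid reductase of bile acid synthesis, had 0.18 (adjusted p = 0.229), and Akr1b1, the aldose reductase, 0.04. Of 25 other carbonyl and quinone reductases 20 were tested, of which 4 were higher and 2 lower at 1000 ppm and 1 was higher at 500 ppm, with a median of 0.09 at 1000 ppm. The highest was Por, the cytochrome P450 reductase (1.08, adjusted p = 4.24e-12), then Mecr, a mitochondrial enoyl reductase (0.21, not called with quantile normalisation or with arrays divided by their median), and the lowest were Hsd11b1, which regenerates active glucocorticoid (-0.17, not called with arrays placed by title or without replicate 2 of the controls on day 3), and Dhrs4 (-0.14). With quantile normalisation 1 of the 20 was higher and 3 were lower, and with arrays placed by title 1 was lower.

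Of the thioredoxin and peroxiredoxin list 23 of 27 genes were tested at 1000 ppm, with 6 higher and 3 lower (3 higher with arrays divided by their median) and a median of 0.07. At 500 ppm 4 of 22 were higher and 2 lower, without the 7 arrays 5 and 1, and with arrays divided by their median 0 were higher. Prdx3, the mitochondrial peroxiredoxin, rose by 0.30, Msra, a methionine sulfoxide reductase, by 0.25 (not called with arrays placed by title or divided by their median) and Txn1, the thioredoxin that Txnrd1 reduces, by 0.24 at 1000 ppm. Sesn2, sestrin, fell by 0.49 and Glrx, glutaredoxin, fell by 0.40. Of the Nrf2 pathway regulators 5 of 8 tested were higher and 0 lower at 1000 ppm (3 higher with arrays divided by their median), and 3 of 7 at 500 ppm (2 without the 7 arrays). Nfe2l1 (0.41) and Nfe2l2, which encodes Nrf2 (0.38), rose most, and Keap1 rose by 0.31.

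Of 29 other Nrf2 target genes 20 were tested, with 13 higher and 0 lower at 1000 ppm, 10 and 0 at 500 ppm and 1 and 0 at 50 ppm, against the 7.11%, 4.64% and 0.149% higher over all probesets. Their median change was 0.39 at 1000 ppm and 0.20 at 500 ppm. This list too was chosen with earlier results known, and whether Nrf2 had a part in these changes was not tested. Ephx1, the microsomal epoxide hydrolase, rose by 1.54 at 1000 ppm and was the 1 gene called at 50 ppm (0.43). The paper also reports epoxide hydrolase as induced by PB. Me1, malic enzyme, rose by 0.84 and Gsr, glutathione reductase, by 0.81. Of the 7 that were not called, Hmox1, heme oxygenase, had -0.11 (adjusted p = 0.508) and Cat, catalase, 0.03 (adjusted p = 0.789).

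**Figure D5:**
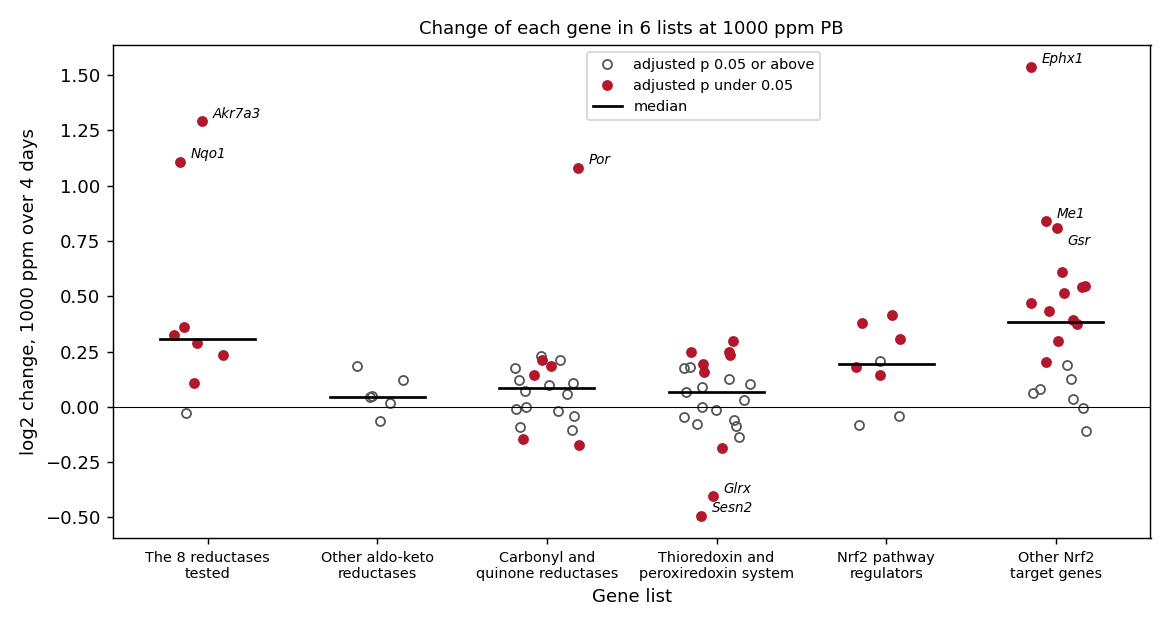
log2 change at 1000 ppm averaged over 4 days (vertical axis) of each tested gene in the 8 tested reductases and 5 related gene lists, with filled points for an adjusted p under 0.05 and lines for medians. The median of the other Nrf2 target genes was 0.39 and that of the other aldo-keto reductases 0.05.

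Markers of other cell types moved by less than Akr7a3 and Nqo1. Epcam, a bile duct marker, moved by more than any other called member, of which Cbr1 had the largest change (0.36). Of the Kupffer cell and macrophage list 5 of 6 genes were measured, and their summed signal ran from 6506 through 6929 to 9447 at 1000 ppm, against 6645, 8341 and 11270 in controls, with Csf1r called lower (-0.23, adjusted p = 0.0316, 0.0538 when blocked by run). All 5 Kupffer cell genes had an unadjusted p under 0.05 and changes between -0.25 and -0.19. Of these 5, 3 were called lower with quantile normalisation, 2 without the 7 arrays and 0 when blocked by run. Of the hepatocyte, endothelial, stellate cell and blood cell genes tested at 1000 ppm (5, 4, 3 and 2 in that order) 0 were called (limma), with 1, 0, 2 and 0 at an unadjusted p under 0.05. With quantile normalisation 1 hepatocyte gene was called lower. Of the bile duct list, Epcam was called higher (0.53, adjusted p = 0.000222), Krt7, Sox9 and Spp1 gave no signal to sum, and the summed signal ran from 617 through 914 to 1304 at 1000 ppm, against 511, 683 and 966 in controls. The part of these cells in the results above was not tested.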

How the data were processed

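Total RNA of the left lateral liver lobe of 3 animals per dose and day was measured on 48 arrays. The authors deposited MAS5 signal intensity values, each array scaled to a mean of 500, and a table of 776 probesets as the ratio of signal to the median of that gene, which was used only to check the signals. The version of the software is not given in the sources used here. Columns of per-sample values that match no sample numbered 0. The members and gene lists were chosen with earlier results of these data known. The filter kept probesets that reached a signal of 90 on 3 or more arrays, 18073 of 31099, and unlisted values were left missing. Intensity was put on the log2 scale and modelled by the mean of every one of the 16 groups, with variances moderated as in limma (version 3.58.1, R 4.3.3) by code that allows missing values and was checked against limma. A comparison needed 2 listed values in each group. Benjamini-Hochberg adjustment ran over all probesets of a comparison. The limma p-values set differences between group means against the spread between animals within groups, pooled over the 16 groups. A 2-way analysis of variance, as in the study's methods, tested dose. The number of arrays limits the precision, and values that were not listed left some comparisons untested. Runs were read from the prefix of the array names in the labels. On simulated data the comparison of 1000 ppm over 4 days found 94 of 100 genes changed 1.5-fold and 99 of 100 changed 2-fold, with 13 false calls among 12680 probesets. On day 1 it found 52 and 90 of 100, with 11 false calls among 13940, or 2 and 34 of 100 when blocked by run. The simulated noise was independent between probesets and held no difference between runs. The changed genes were listed on every array, and changes under 1.5-fold were not simulated. Genes named as most like a member were the 3 with the highest correlation of group means, and the genes named from a list were the 2 called with the largest changes in each direction at 1000 ppm over 4 days. Outside this rule Akr1d1, Akr1b1, Txn1, Keap1, Gsr, Hmox1 and Cat were named after their values were seen. Alternatives were other placements of arrays, blocks, scalings, filters, probesets and leaving out each array.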

Additional observations from a re-analysis of the deposited data

Results flagged for a closer look

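In 3 cases all animals of a dose lay above the controls on one day and all lay below them on another, a pattern that 8.83%, 6.63% and 5.38% of the 10151 probesets listed on every array showed at 50, 500 and 1000 ppm. The difference between the days was not tested in any of them. Akr1a1 at 50 ppm was 0.18 above controls on day 7 and had -0.10 on day 3, a difference of 0.28 on the log2 scale. Cbr1 at 50 ppm had 0.23 on day 3 and -0.46 on day 1, a difference of 0.69, and the day 1 controls were the highest of the control days. Nqo2 at 1000 ppm had 0.19 on day 7 and -0.21 on day 14, a difference of 0.40. None of these 6 changes passed the adjusted threshold of limma, and 50 ppm on days 3 and 7 holds arrays with conflicting labels.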

How the results depend on the processing

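Counts of members called kept within 1.5 times of their values except as follows. With the run as a fixed block, calls by day fell to 2 (of 15) at 1000 ppm and 0 (of 6) at 500 ppm. With the replicate block on the title number, 1 member was called at 50 ppm by day and 1 between control days, against 0 each without it. Title numbers did not pair the animals, since deviations of arrays with the same number correlated at 0.0232 on average and those with other numbers at -0.0115. With arrays divided by their median signal 1 call was made at 50 ppm by day and 3 for day 14 minus day 1, against 0 each, and with run means removed 3 pairs of members correlated, against 1. Changes of 50 ppm over 4 days that turned sign were Cbr1 without the 7 arrays (-0.013), Akr7a2 with quantile normalisation (-0.012) and median scaling (-0.031), Akr1a1 with median scaling (-0.011) and Akr1c14 in a further probeset (-0.023), and when arrays were left out one by one Akr7a3 ran from -0.026 to 0.116, Akr7a2 from -0.0098 to 0.029 and Txnrd1 from -0.022 to 0.022. None of these was called, and the cause was not tested. Leaving out each of the 48 arrays gave 6 to 7 members called at 1000 ppm over 4 days, 4 to 6 at 500 ppm and 0 to 0 at 50 ppm, 11 to 15, 4 to 7 and 0 to 0 calls by day at 1000, 500 and 50 ppm, 0 to 0 for 1000 against 500 ppm, for day 14 minus day 1 and between control days, and 3 to 3 in the analysis of variance.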
